A study of Rattus norvegicus with 6 samples.

Results

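The nuclear genes that encode the subunits of the respiratory chain and of the ATP synthase were followed in cultured heart muscle cells. The members were all rows of the deposited table whose symbol began with Nduf, Sdh, Uqcr or Atp5, or with Cox followed by 4, 5, 6, 7 or 8, apart from Cox6b2. This rule gave 85 of the 13843 rows and 84 distinct symbols, since Ndufb9 stands on 2 rows. By gene name, 34 rows belong to complex I, 4 to complex II, 8 to complex III, 13 to complex IV (Ndufa4 among them) and 15 to complex V. The remaining 11 are assembly factors and other genes that share such a symbol. Rows were tested if they averaged 1 FPKM or more across the libraries, which held for 84 of the 85 rows; the exception was Atp5f1. No row stood under the names Cox7a1 or Cox6b1, and neither gene was analysed here.

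Complexes I and II pass electrons from NADH and succinate to ubiquinone, complex III hands them to cytochrome c, and complex IV reduces oxygen. Complexes I, III and IV pump protons across the inner mitochondrial membrane, and complex V, the ATP synthase, uses the gradient to make ATP. Heart muscle is among the tissues richest in these complexes, and several complex IV subunits exist there as a muscle-type and a general isoform.

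The cells were neonatal rat ventricular myocytes (NRVM), with 6 libraries in 3 groups of 2. All 3 groups received phenylephrine (PE), an adrenergic agonist that makes cardiomyocytes grow, and a short hairpin RNA for 3 days. PE+TSA+shJIP1 had PE, TSA and the hairpin against JIP1, PE+TSA had PE, TSA and the control hairpin, and PE had PE and the control hairpin. TSA commonly stands for trichostatin A, a histone deacetylase inhibitor, which the labels do not spell out, and they call the JIP1 group a knockout in one place and give a hairpin in another. Cells without PE, or with the JIP1 hairpin but no TSA, were not analysed here. The labels name no separate cultures or animals, so p-values measure only the spread between these libraries, which may be technical.

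Values were FPKM, a fragment count scaled to transcript length and library size, so levels of different genes can be compared per length. Absolute depth is unknown. From whole-read steps among low values, depth relative to PE replicate 1 was 0.903 and 0.72 for PE+TSA+shJIP1, 1.34 and 0.854 for PE+TSA, and 0.0481 for PE replicate 2, which was thus 20.8 times shallower. Changes below are differences of log2(FPKM + 1), with the standard error (SE) of a limma fit to all 6 libraries, and a change passed when its Benjamini-Hochberg adjusted p over 10359 features was under 0.05. The scale understates changes of low genes.

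Mapk8ip1, which encodes JIP1, had 1.80 and 3.65 FPKM with the hairpin (PE+TSA+shJIP1), 14.6 and 17.9 FPKM in PE+TSA, and 3.77 and 4.39 FPKM in PE. The hairpin libraries were the lowest of the 6. Its change was -2.25 ± 0.34 for PE+TSA+shJIP1 minus PE+TSA (limma adjusted p = 0.077) and 1.76 ± 0.34 for PE+TSA minus PE (limma adjusted p = 0.0852), so neither passed. Of 8 cardiomyocyte markers 7 had a row. Their summed level was 9009 and 4570 FPKM in PE+TSA+shJIP1, 9447 and 4221 FPKM in PE+TSA, and 21621 and 17424 FPKM in PE, and all 7 had a negative change with TSA (median -1.49). The 8 fibroblast markers summed to 563 and 682 FPKM in PE+TSA+shJIP1, 534 and 744 FPKM in PE+TSA, and 1039 and 1680 FPKM in PE, with Col1a2 at or near 0 throughout. Thy1 went the other way from the sum, at 10.9 and 17.3 FPKM in PE+TSA+shJIP1, 20.9 and 24.7 FPKM in PE+TSA, and 3.29 and 1.56 FPKM in PE. It passed as higher with TSA (2.84 ± 0.36, limma adjusted p = 0.0373) and with both (2.16 ± 0.36, limma adjusted p = 0.026). The smooth muscle and pericyte markers summed to 510 and 486 FPKM in PE+TSA+shJIP1, 390 and 248 FPKM in PE+TSA, and 1637 and 1316 FPKM in PE. With TSA, changes were negative for 6 of 7 tested fibroblast markers and for all 5 tested smooth muscle and pericyte markers. With both agents, 1 cardiomyocyte, 1 fibroblast and 2 smooth muscle and pericyte markers passed as lower, where 4.16% of all features did. With TSA, 1 smooth muscle and pericyte marker passed as lower, where 0.183% of all features did. Endothelial markers summed to 7.82 to 37.7 FPKM, macrophage markers to 4.43 to 11 FPKM and Schwann cell markers to 0.687 to 2.73 FPKM over the 6 libraries, with Emcn, C1qa and Sox10 at 0 in most. Fewer cells of a type and less RNA per cell cannot be told apart in such bulk samples, and the part of cell composition in the results below was not tested.

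The members were among the most abundant transcripts of the cultures. The median member ranked at percentile 96.4 of the features tested by mean level, 64 of 84 lay above percentile 90, and 58 averaged at least 100 FPKM. The median member level was 167 and 161 FPKM in PE+TSA+shJIP1, 184 and 154 FPKM in PE+TSA, and 212 and 130 FPKM in PE. The first PE library was therefore the highest and the second the lowest, with all libraries that received TSA between them. Summed over the tested members, the level was 31100 and 28250 FPKM in PE+TSA+shJIP1, 30149 and 25436 FPKM in PE+TSA, and 35410 and 25921 FPKM in PE, and the 3 groups overlapped.

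Subunits of a single complex were far from equal in level. In complex I the mean over the 6 libraries ran from 37.4 FPKM for Ndufa10 to 983 FPKM for Ndufv1, the NADH-binding flavoprotein, a ratio of 26.3. In complex II it ran from 37.5 FPKM for the membrane anchor Sdhc to 185 FPKM for the iron-sulphur subunit Sdhb. Complex III spanned 18.8 FPKM for Uqcrb to 2046 FPKM for Uqcr10, and complex IV 7.26 FPKM for Cox4i2 to 2502 FPKM for Cox6a1. Complex V, without Atp5f1, spanned 81.8 FPKM for the c-ring gene Atp5g3 to 1921 FPKM for the membrane subunit Atp5i. The stalk gene Atp5f1 was listed at 0.279 FPKM in PE+TSA+shJIP1 replicate 1, 0.294 FPKM in PE+TSA replicate 2 and 0 in the other 4 libraries, although its partners in the stalk, such as Atp5h and Atp5o, were among the abundant members. Such a value can be a failed estimate as well as a low level. Among the 11 other members the range was 1.06 FPKM for Ndufa4l2, a paralog of Ndufa4, to 172 FPKM for Cox7a2l, a factor of supercomplex assembly.

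**Figure D1:**
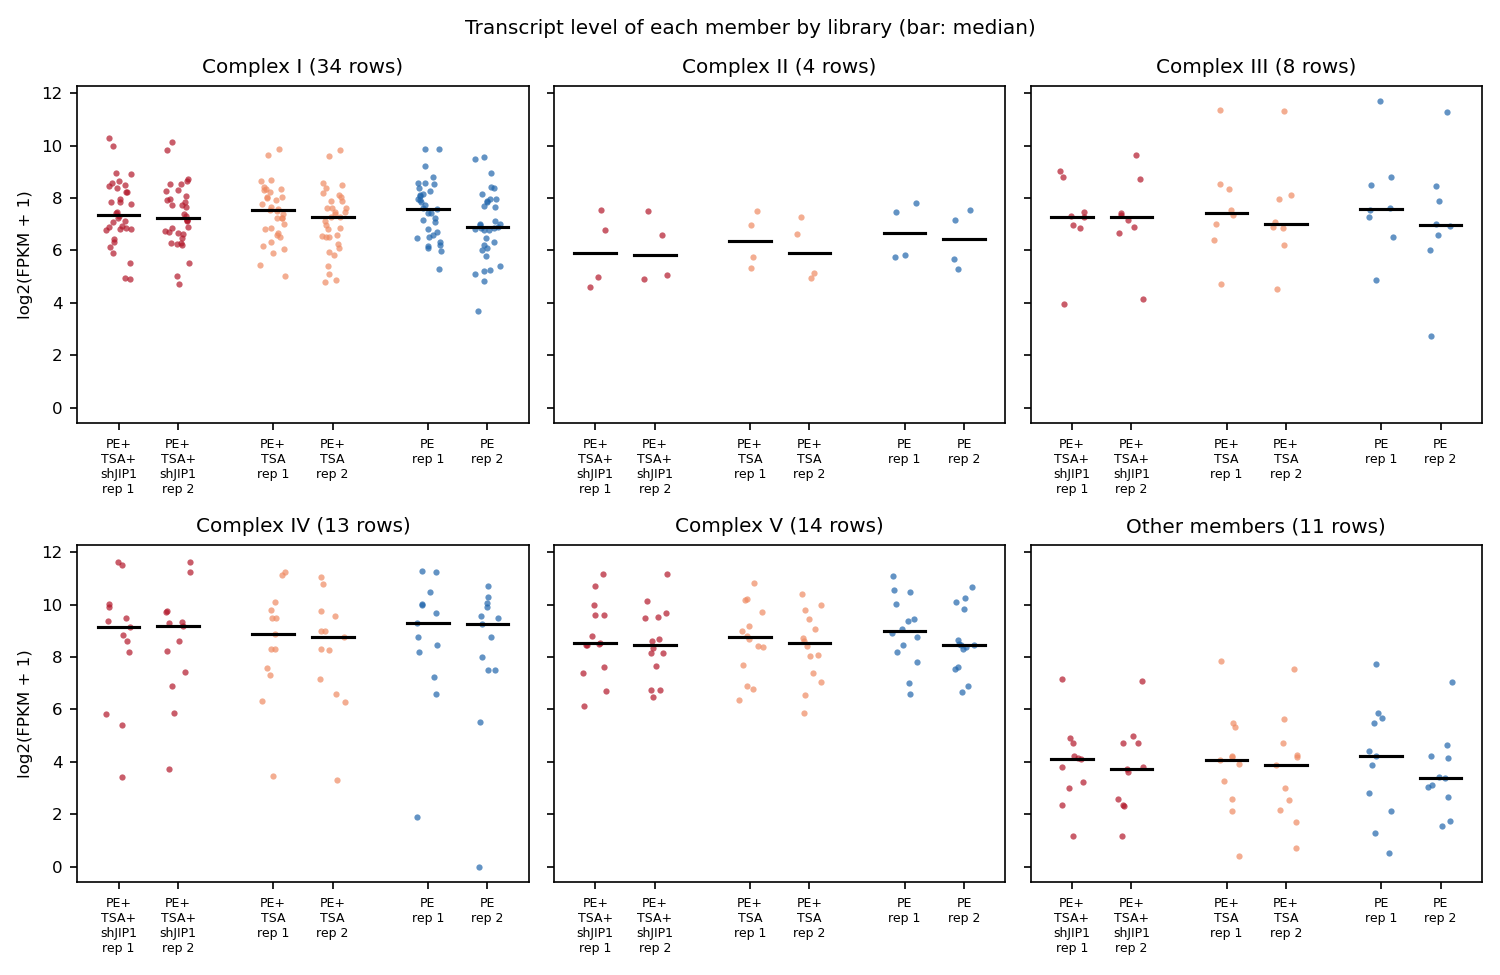
Level of each tested member on the log2(FPKM + 1) scale (y axis) in each library (x axis), 1 panel per complex, with points for genes and a bar at the median. Medians of complexes IV and V lie above those of complexes I to III, and the 11 other members lie lowest.

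Promoters are shown for 3 members, Uqcr10 and Uqcrh as the pair of complex III genes whose level was lowest in both JIP1 hairpin libraries, and Sdha as a subunit with repeated sites for NRF1, a factor known for driving respiratory chain genes. The sequences are the 250 bases before the gene start in RefSeq, build GRCr8, written 5′ to 3′ on the gene's strand. Capitals mark the letters TATAAA in Uqcr10 (chr14:83791915-83792164, minus strand), an ETS site in Uqcrh (chr5:134790883-134791132, minus strand) and a pair of NRF1 sites in Sdha (chr1:30764303-30764552, plus strand).
Uqcr10: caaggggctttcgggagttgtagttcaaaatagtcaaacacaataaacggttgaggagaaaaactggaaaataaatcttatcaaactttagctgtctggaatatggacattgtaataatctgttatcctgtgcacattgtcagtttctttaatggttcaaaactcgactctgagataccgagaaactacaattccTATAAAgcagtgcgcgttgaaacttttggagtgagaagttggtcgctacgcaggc
Uqcrh: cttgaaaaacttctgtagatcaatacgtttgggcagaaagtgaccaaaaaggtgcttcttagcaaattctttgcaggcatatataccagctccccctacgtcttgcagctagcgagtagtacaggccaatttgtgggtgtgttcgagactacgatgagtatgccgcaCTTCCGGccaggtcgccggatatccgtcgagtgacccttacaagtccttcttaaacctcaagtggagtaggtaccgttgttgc
Sdha: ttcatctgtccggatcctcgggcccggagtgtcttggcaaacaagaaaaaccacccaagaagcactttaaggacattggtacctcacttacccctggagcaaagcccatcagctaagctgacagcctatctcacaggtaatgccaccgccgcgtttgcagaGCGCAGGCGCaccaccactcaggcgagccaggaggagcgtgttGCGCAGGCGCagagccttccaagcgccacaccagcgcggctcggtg
All 84 symbols matched the RefSeq gene table, 67 by current and 17 by older symbol, and 73 had a promoter. The motifs searched were the NRF1 motif, of the form in capitals in the Sdha promoter or its reverse complement with any base at 1 place, CCGGAAG for ETS factors such as GABP, AAGGTCA for the ERR receptors, AAGATGGC for YY1 and TATAAA, on both strands, and no matches of different motifs overlapped. The NRF1 letters occurred in 13 of the 73 promoters (17.8%), against 3.75% of all 33469 promoters and 9.84% of 8159 promoters of tested features. The ETS letters occurred in 20 (27.4%), against 7.27% of all and 16.3% of tested, and 32 promoters held one or both of these motifs. The ERR letters occurred in 7 (9.59%, against 3.99% of all and 2.24% of tested) and the YY1 letters in 2 (2.74%, against 1.63% and 2.34%). TATAAA occurred in 6 (8.22%, against 12.9% and 6.35%). A match is a description of the letters, not a site shown to be bound. Members with the NRF1 letters had a median change of 0.03 for PE+TSA+shJIP1 minus PE, and the 59 tested members with a promoter that lacks them -0.11; for the ETS letters the medians were -0.11 with and -0.08 without.

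In the comparison of PE+TSA with PE, which asks what TSA does in the presence of PE, no member passed limma's test (0 of 84, against 0.811% of all features tested). At an unadjusted p under 0.05 there were 6 members (7.14%), against 18.7% of all features. The groups did not overlap for 26 members (31.0%, 9 higher and 17 lower with TSA), against 50.6% of all features. The median change of the members was -0.11, and that of all features 0.10. Changes were small: 66 of 84 members (78.6%) lay within 0.5 of no change and 1 (1.19%) beyond 1, against 58.2% and 15.7% of all features. Without PE replicate 1 the member median was 0.12, and without PE+TSA replicate 2 it was 0.03, so its sign rests on single libraries.

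In the comparison of PE+TSA+shJIP1 with PE+TSA, which asks what the JIP1 hairpin does in the presence of TSA, again no member passed limma's test (0 of 84, against 0.29% of all features). There were 6 members (7.14%) at an unadjusted p under 0.05, against 14.9%. The groups did not overlap for 33 members (39.3%, 21 higher and 12 lower with the hairpin), against 50% of all features. The median member change was 0.12, against -0.003 over all features. It was -0.05 without PE+TSA replicate 2 and 0.002 under quantile normalization. Of the 84 members, 68 (81.0%) were within 0.5 of no change and 2 (2.38%) beyond 1, against 65.2% and 9.77%.

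In the comparison of PE+TSA+shJIP1 with PE, 1 of 84 members passed (1.19%), against 8.27% of all features tested. That member was Uqcr10, which was lower, in a comparison where 4.16% of all features passed as lower and 4.11% as higher. At an unadjusted p under 0.05 there were 17 members (20.2%), against 30.7%, and the groups did not overlap for 36 (42.9%, 18 higher and 18 lower), against 60.6%. The median member change was -0.04, against 0.10, and it was 0.16 without PE replicate 1. Beyond a change of 1 lay 6 members (7.14%), against 24.0% of all features. Among features as abundant as most members, the 1016 with a mean of at least 72.8 FPKM, changes beyond 1 were found in 25.9% in this comparison, 14.5% for the hairpin and 15.3% for TSA, and of the 64 members among them in 4.69%, 1.56% and 0%. A small change does not show equality, since the median 95% interval of a member reached 0.71 to either side. The interval stayed within 1 of no change for 41 members with TSA, 45 with the hairpin and 36 with both.

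**Figure D2:**
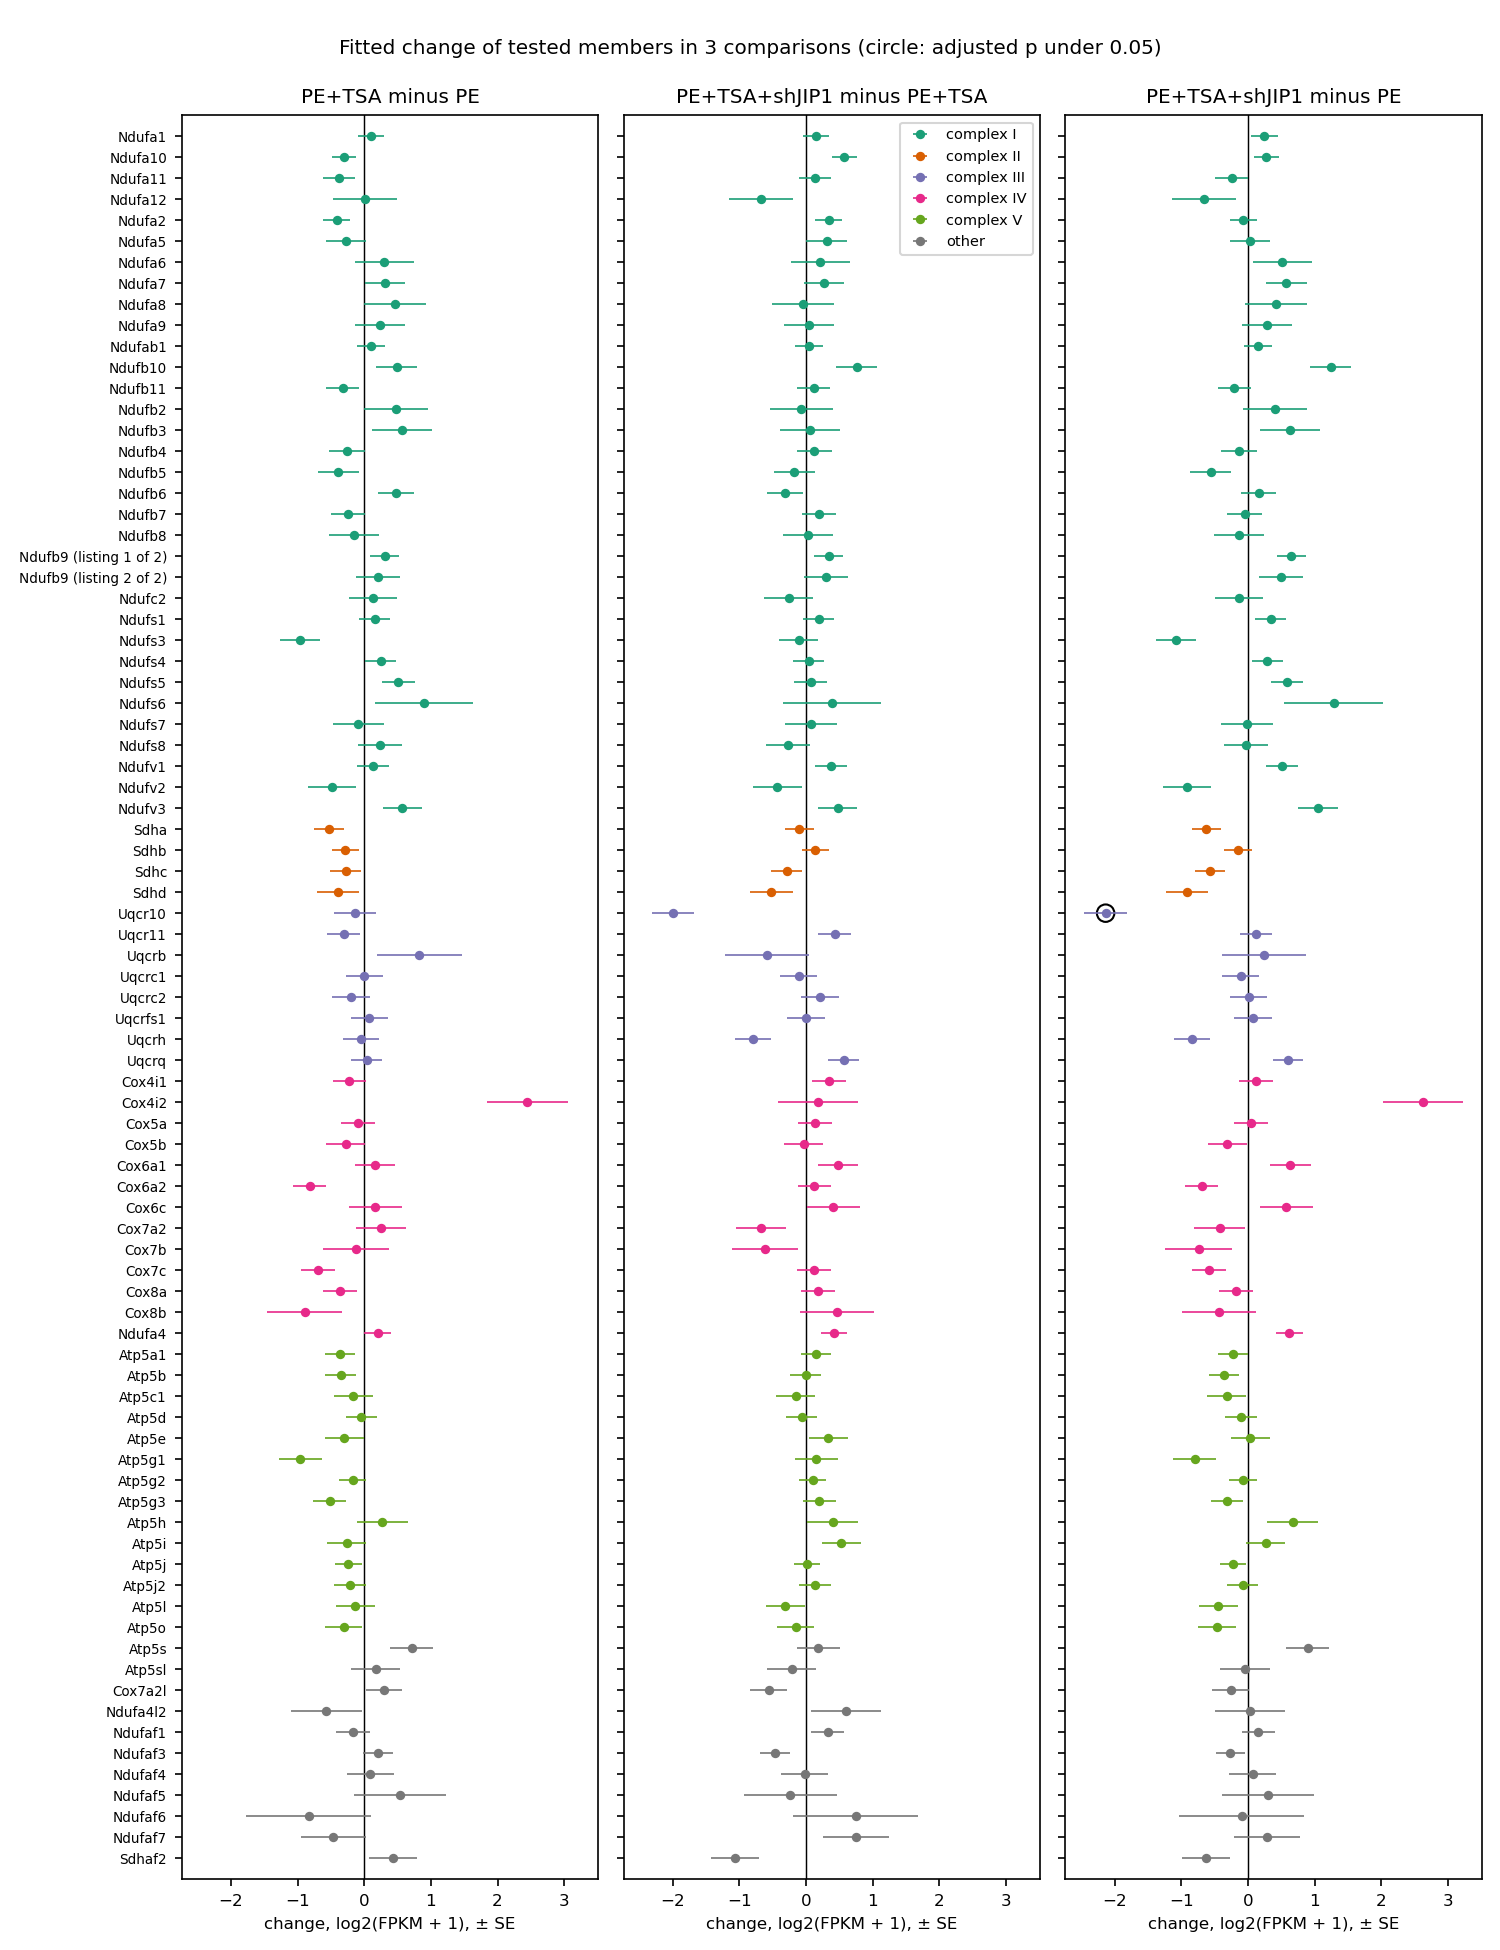
Fitted change of the tested members, 1 left out, on the log2(FPKM + 1) scale (x axis, points with SE bars) in the 3 comparisons (panels), coloured by complex. Most members lie within 0.5 of 0, Uqcr10 stands apart on the left in both comparisons that involve the JIP1 hairpin, and Cox4i2 on the right in both that compare with PE.

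Complex III held the member with the clearest difference. Uqcr10, a small subunit of the complex, stood at 521 and 806 FPKM in PE+TSA+shJIP1, 2623 and 2559 FPKM in PE+TSA, and 3296 and 2468 FPKM in PE. Both hairpin libraries lay well below the other 4, which overlapped with each other. The change was -2.14 ± 0.32 for PE+TSA+shJIP1 minus PE (limma adjusted p = 0.0207, a back-transformed ratio of 0.228), so Uqcr10 fell. It was -2.00 ± 0.32 for PE+TSA+shJIP1 minus PE+TSA (95% interval -2.77 to -1.22, limma unadjusted p = 0.000651, adjusted p = 0.0845), which did not pass, and -0.14 ± 0.32 for PE+TSA minus PE. Among the 15 alternative analyses the change against PE lay between -2.45 and -1.82 and the adjusted p between 0.0126 and 0.116. It passed in 9 of them. It no longer passed without the filter on low values (limma adjusted p = 0.0712), without PE replicate 2 (change -2.34, limma adjusted p = 0.0712), without either PE+TSA library (limma adjusted p = 0.0537 and limma adjusted p = 0.0579), or without PE+TSA+shJIP1 replicate 1 (change -1.82, limma adjusted p = 0.116) or 2 (change -2.45, limma adjusted p = 0.105). In the GRCr8 annotation Uqcr10 overlaps Zmat5, which was not analysed here, and a pseudogene, Uqcr10-ps1, is annotated, so reads of these loci may be shared.

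Uqcr10 made up 30.6% and 41.6% of the summed FPKM of complex III in PE+TSA+shJIP1, 67.2% and 72.2% in PE+TSA against 69.3% and 71.1% in PE. The other 7 subunits together summed to 1181 and 1134 FPKM in PE+TSA+shJIP1, 1280 and 984 FPKM in PE+TSA, and 1458 and 1003 FPKM in PE, and these groups overlapped. Uqcrh, the hinge protein that sits beside cytochrome c1, stood at 153 and 170 FPKM in PE+TSA+shJIP1, 322 and 245 FPKM in PE+TSA, and 356 and 236 FPKM in PE. The hairpin libraries were again the lowest, with a change of -0.80 ± 0.27 against PE+TSA (limma adjusted p = 0.256) and -0.84 ± 0.27 against PE (limma adjusted p = 0.0999), neither of which passed. Uqcrq, another small subunit, lay the other way, at 114 and 117 FPKM in PE+TSA+shJIP1, 84.2 and 72.5 FPKM in PE+TSA, and 90.6 and 63.7 FPKM in PE. Its change was 0.56 ± 0.23 against PE+TSA (limma adjusted p = 0.334) and 0.60 ± 0.23 against PE (limma adjusted p = 0.141).

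The core proteins and the Rieske subunit of complex III overlapped between all groups. Uqcrfs1, the Rieske iron-sulphur protein, stood at 175 and 143 FPKM in PE+TSA+shJIP1, 184 and 136 FPKM in PE+TSA, and 184 and 121 FPKM in PE, and its change with both agents was 0.08 (95% interval -0.61 to 0.77). The core protein Uqcrc1 stood at 126 and 102 FPKM in PE+TSA+shJIP1, 129 and 116 FPKM in PE+TSA, and 155 and 95.8 FPKM in PE. Cyc1, the cytochrome c1 of the complex, which the symbol rule does not reach, stood at 121 and 105 FPKM in PE+TSA+shJIP1, 153 and 106 FPKM in PE+TSA, and 243 and 179 FPKM in PE. Every PE library was higher for Cyc1 than every library with TSA, with a change of -0.88 ± 0.26 for PE+TSA+shJIP1 minus PE (limma adjusted p = 0.0861). Uqcrb, a small subunit, stood at 14.6 and 16.6 FPKM in PE+TSA+shJIP1, 25.6 and 22.3 FPKM in PE+TSA, and 28.1 and 5.74 FPKM in PE. Its change with TSA was 0.83 ± 0.63 (limma adjusted p = 0.51) and became 1.88 (limma adjusted p = 0.0436) without PE replicate 1, when only the shallow library stood for PE. Without PE replicate 2 the direction turned, to -0.23 (limma adjusted p = 0.729).

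**Figure D3:**
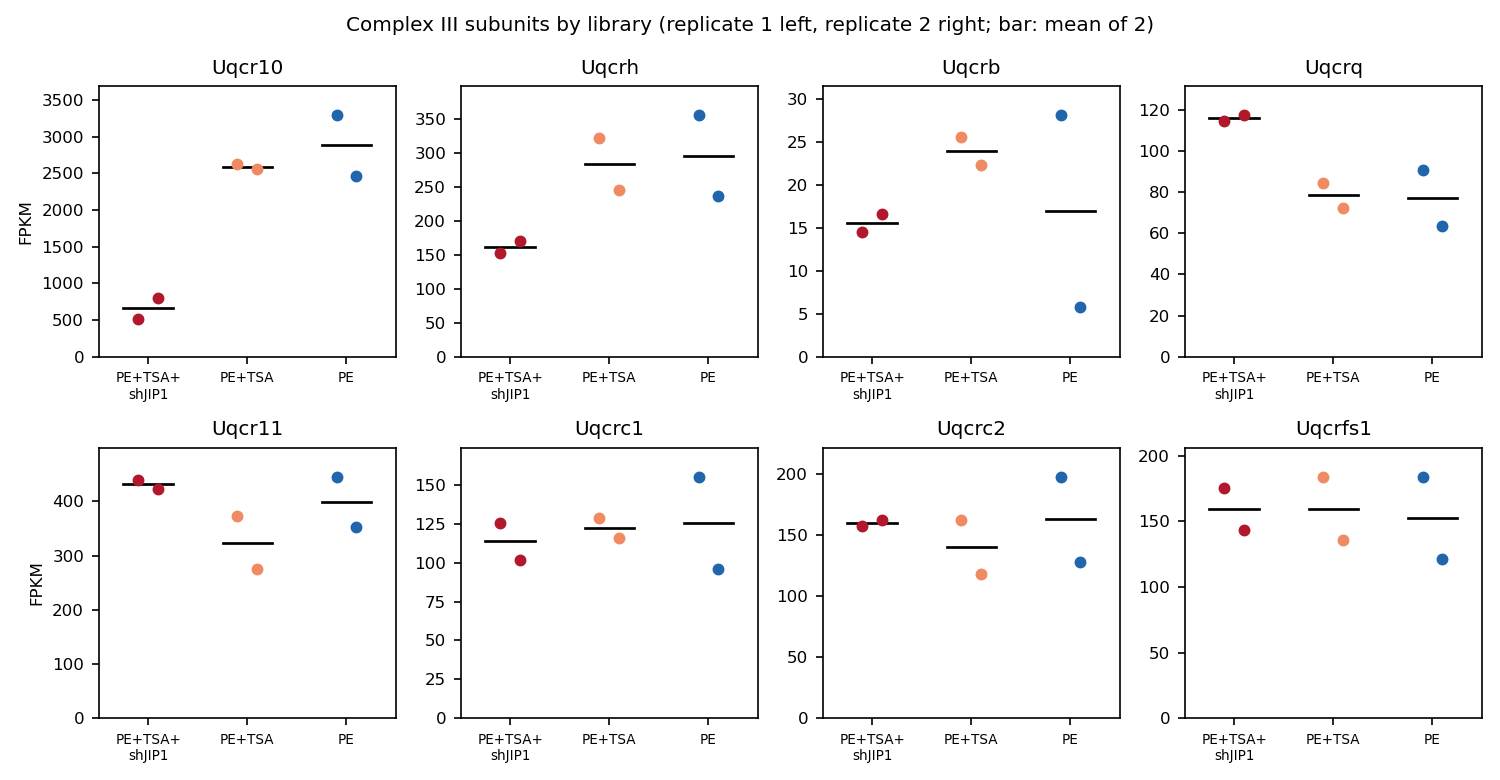
FPKM (y axis, from 0) of the 8 complex III subunits in the 3 groups (x axis), with a point per library and a bar at the mean of 2 libraries. The hairpin libraries are the lowest for Uqcr10 and Uqcrh and the highest for Uqcrq.

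Complex I had no member that passed in any comparison. Of its 34 rows, 38.2% had a negative change with TSA, against 42.9% of all features. The shares were 26.5% against 50.2% with the hairpin, and 41.2% against 44.4% with both. Its rows thus leaned to higher values with the hairpin, but less so under quantile normalization (20 of 34 above 0, median 0.03). The lean was not particular to complex I. Negative shares with the hairpin were 23.1% in complex IV and 35.7% in complex V, against 50% in complex III and 75% in complex II. The median change of complex I was 0.13 with TSA (21 of 34 above 0), 0.12 with the hairpin (25 of 34) and 0.20 with both (20 of 34). Without PE replicate 2 the first and the last of these were -0.25 and -0.09, and without PE+TSA replicate 2 the hairpin median was -0.02. Of the 34 rows, 28 lay within 0.5 of no change with TSA, 31 with the hairpin and 20 with both.

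Among the nuclear core subunits of complex I, values differed in direction. Ndufv1 stood at 1262 and 1119 FPKM in PE+TSA+shJIP1, 925 and 913 FPKM in PE+TSA, and 935 and 746 FPKM in PE. The hairpin libraries were the highest, with a change of 0.51 ± 0.24 against PE (limma adjusted p = 0.206). Ndufs3, another core subunit, stood lower, with 30.2 and 31.6 FPKM in PE+TSA+shJIP1, 42.1 and 26.6 FPKM in PE+TSA, and 79.9 and 55.0 FPKM in PE. Both PE libraries exceeded all 4 with TSA. Its change was -0.96 ± 0.30 with TSA (limma adjusted p = 0.171) and -1.08 ± 0.30 with both (limma adjusted p = 0.0719). Ndufs3 overlaps Kbtbd4 in GRCr8, so reads may be shared there too. Ndufs1, the largest iron-sulphur subunit, had 110 and 119 FPKM in PE+TSA+shJIP1, 113 and 89.6 FPKM in PE+TSA, and 104 and 78.5 FPKM in PE, and its change with both was 0.34 (95% interval -0.21 to 0.90). Ndufv2, an iron-sulphur subunit of the NADH-oxidising part, had 122 and 76.5 FPKM in PE+TSA+shJIP1, 150 and 115 FPKM in PE+TSA, and 245 and 138 FPKM in PE, with the hairpin libraries below both PE libraries (change -0.92 ± 0.36, limma adjusted p = 0.152).

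Accessory subunits surround the core and stabilise complex I. Ndufb10 had the smallest p of complex I for both agents, at 232 and 319 FPKM in PE+TSA+shJIP1, 167 and 154 FPKM in PE+TSA, and 149 and 87.7 FPKM in PE. The 3 groups did not overlap, and the change against PE was 1.24 ± 0.31 (limma adjusted p = 0.0587). It became 1.62 without PE replicate 1 (limma adjusted p = 0.0367) and 0.86 without PE replicate 2 (limma adjusted p = 0.158). Ndufv3 was ordered in the same way, at 115 and 88.3 FPKM in PE+TSA+shJIP1, 78.1 and 66.7 FPKM in PE+TSA, and 62.3 and 37.2 FPKM in PE, with a change of 1.05 ± 0.30 (limma adjusted p = 0.0752), or 1.41 without PE replicate 1 (limma adjusted p = 0.0424) and 0.68 without PE replicate 2 (limma adjusted p = 0.203). Ndufa10 had the smallest p of complex I for the hairpin, at 44.9 and 45.3 FPKM in PE+TSA+shJIP1, 31.7 and 28.3 FPKM in PE+TSA, and 37.8 and 36.5 FPKM in PE. The hairpin libraries were the highest and the PE+TSA libraries the lowest, with a change of 0.58 ± 0.19 between them (limma adjusted p = 0.24). Ndufs6 shows the weight of the shallow library, at 69.6 and 73.1 FPKM in PE+TSA+shJIP1, 70.2 and 41.7 FPKM in PE+TSA, and 67.9 and 11.8 FPKM in PE. Its change with both was 1.29 ± 0.74 (limma adjusted p = 0.285), but 2.5 (limma adjusted p = 0.0297) when PE replicate 2 alone stood for PE and 0.07 (limma adjusted p = 0.922) when PE replicate 1 did. The rows of Ndufb9 gave changes of like sign, 0.65 ± 0.22 for listing 1 of 2 and 0.49 ± 0.33 for listing 2 of 2 with both agents, neither of which passed.

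Complex II, succinate dehydrogenase, is also an enzyme of the citric acid cycle and has no subunit encoded by mitochondrial DNA. All 4 subunits had a negative change with TSA (median -0.34) and with both agents (median -0.60), and none passed. Of all features, 42.9% had a negative change with TSA and 44.4% with both. Sdha, the flavoprotein that oxidises succinate, stood at 110 and 95.8 FPKM in PE+TSA+shJIP1, 123 and 98.2 FPKM in PE+TSA, and 176 and 143 FPKM in PE. Both PE libraries lay above the other 4, and the change was -0.53 ± 0.22 with TSA (limma adjusted p = 0.273) and -0.63 ± 0.22 with both (limma adjusted p = 0.119). Sdhd, a membrane anchor, stood at 23.4 and 32.6 FPKM in PE+TSA+shJIP1, 53.1 and 30.2 FPKM in PE+TSA, and 55.8 and 50.5 FPKM in PE. The hairpin libraries did not overlap with PE, with a change of -0.92 ± 0.32 (limma adjusted p = 0.116). The other anchor, Sdhc, had 31.1 and 28.9 FPKM in PE+TSA+shJIP1, 39.3 and 34.6 FPKM in PE+TSA, and 53.0 and 38.1 FPKM in PE, and a change with both of -0.57 ± 0.23 (limma adjusted p = 0.158). Sdhb had 185 and 182 FPKM in PE+TSA+shJIP1, 180 and 154 FPKM in PE+TSA, and 226 and 184 FPKM in PE, and a change with both of -0.15 (95% interval -0.65 to 0.35). The complex II median with both agents stayed between -0.79 and -0.41 when single libraries were left out, and the TSA median between -0.54 and -0.18. The cardiomyocyte marker sum given above was lower by a larger factor in the same libraries, and its part in these values was not tested.

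Complex IV had 13 rows, none of which passed. The medians were -0.13 with TSA, 0.18 with the hairpin and -0.18 with both, and without PE replicate 1 the first and last were 0.05 and 0.13. The hairpin median (10 of 13 rows above 0) was -0.05 under quantile normalization (5 of 13) and 0.02 without PE+TSA replicate 2 (7 of 13). Cox4i1 stood at 560 and 579 FPKM in PE+TSA+shJIP1, 467 and 429 FPKM in PE+TSA, and 633 and 433 FPKM in PE. Its hairpin libraries lay above both PE+TSA libraries (change 0.35 ± 0.25, limma adjusted p = 0.58). The change of Cox4i1 with both was 0.12 (95% interval -0.49 to 0.73). Cox5a stood at 959 and 838 FPKM in PE+TSA+shJIP1, 884 and 750 FPKM in PE+TSA, and 1003 and 757 FPKM in PE, with a change with both of 0.04 (95% interval -0.58 to 0.66). All groups overlapped for Cox5a. Ndufa4, once counted in complex I, stood at 455 and 387 FPKM in PE+TSA+shJIP1, 315 and 312 FPKM in PE+TSA, and 289 and 256 FPKM in PE. Its groups did not overlap, and the change with both was 0.62 ± 0.20 (limma adjusted p = 0.101).

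Complex IV has several isoform pairs. Cox6a2, the heart and skeletal muscle form, stood at 656 and 641 FPKM in PE+TSA+shJIP1, 708 and 502 FPKM in PE+TSA, and 1036 and 1066 FPKM in PE. Both PE libraries exceeded the other 4, with a change of -0.82 ± 0.25 with TSA (limma adjusted p = 0.17) and -0.70 ± 0.25 with both (limma adjusted p = 0.123). Cox6a1, the general form, stood at 3174 and 3152 FPKM in PE+TSA+shJIP1, 2422 and 2126 FPKM in PE+TSA, and 2447 and 1690 FPKM in PE, with a change with both of 0.64 ± 0.30 (limma adjusted p = 0.209). Cox6a2 thus made up 17.1% and 16.9% of the FPKM of the pair in PE+TSA+shJIP1, 22.6% and 19.1% in PE+TSA against 29.8% and 38.7% in PE, and the 3 groups did not overlap. These shares were not tested, and the cardiomyocyte markers were likewise lower in all libraries with TSA. For the other muscle form, Cox8b, the share of the pair with Cox8a was 28.6% and 15.7% in PE+TSA+shJIP1, 21.0% and 15.9% in PE+TSA against 29.7% and 20.0% in PE, and the groups overlapped. Cox8b itself was at 289 and 118 FPKM in PE+TSA+shJIP1, 188 and 95 FPKM in PE+TSA, and 348 and 179 FPKM in PE, with replicate 1 the higher in each group. Cox7a2, the general form of its subunit, was at 41.6 and 56.7 FPKM in PE+TSA+shJIP1, 79.4 and 76.7 FPKM in PE+TSA, and 96.6 and 44.5 FPKM in PE, and its change with the hairpin was -0.67 ± 0.38 (limma adjusted p = 0.474). Of the small subunits, Cox7c was at 385 and 300 FPKM in PE+TSA+shJIP1, 319 and 309 FPKM in PE+TSA, and 430 and 607 FPKM in PE, with both PE libraries above the other 4 and a change with TSA of -0.70 ± 0.26 (limma adjusted p = 0.223). Cox7b was at 55 and 172 FPKM in PE+TSA+shJIP1, 156 and 143 FPKM in PE+TSA, and 149 and 179 FPKM in PE, where the groups overlapped, and its change with both was -0.74 ± 0.50 (limma adjusted p = 0.353).

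Cox4i2, the isoform of Cox4i1 best known from lung, was low in every library, at 9.69 and 12.2 FPKM in PE+TSA+shJIP1, 10.1 and 8.96 FPKM in PE+TSA, and 2.69 FPKM and a listed 0 in PE. The 4 libraries with TSA lay above both PE libraries, and the 0 stood in the shallow PE replicate 2. The change was 2.45 ± 0.60 with TSA (limma adjusted p = 0.127) and 2.63 ± 0.60 with both (limma adjusted p = 0.051), so neither passed. With both agents it was 1.68 without PE replicate 2 (limma adjusted p = 0.0818) and 3.57 without PE replicate 1 (limma adjusted p = 0.0186), and a pseudocount of 0.1 gave 4.37 (limma adjusted p = 0.107). Cox4i2 remained a small part of the pair with Cox4i1, 1.70% and 2.06% in PE+TSA+shJIP1, 2.11% and 2.04% in PE+TSA against 0.424% and 0 in PE.

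**Figure D4:**
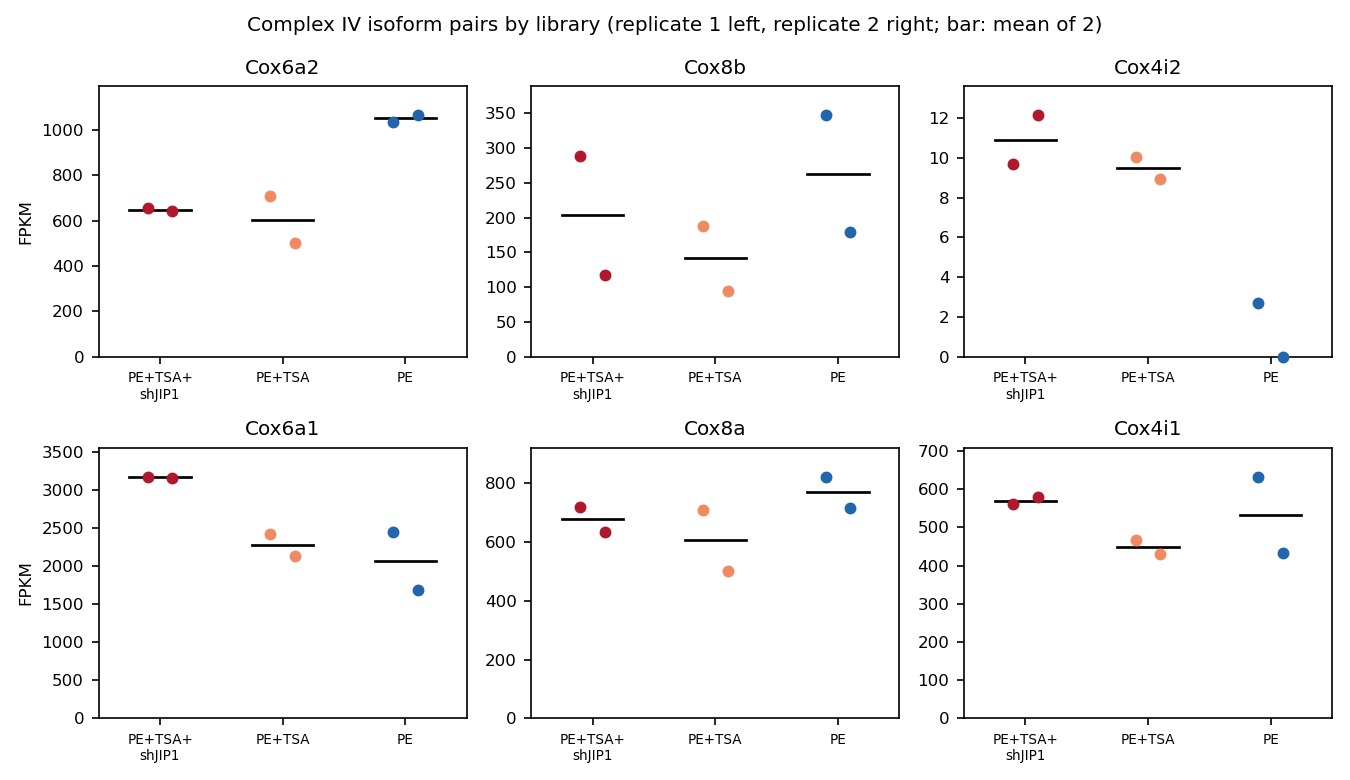
FPKM (y axis, from 0) of 3 complex IV isoform pairs in the 3 groups (x axis), with a point per library and a bar at the mean of 2 libraries, left out where a library is listed at 0. Cox6a2 is highest and Cox4i2 lowest in PE, and Cox6a1 is highest in PE+TSA+shJIP1.

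Complex V leaned to lower values with TSA, with 13 of 14 tested subunits at a negative change and a median of -0.25, but no subunit passed. That share was 92.9%, against 42.9% of all features. The count was 10 of 14 and the median -0.14 without PE replicate 1, and the median was -0.07 without PE+TSA replicate 2. With the hairpin the median was 0.12, or 0.008 under quantile normalization and -0.05 without PE+TSA replicate 2. With both it was -0.22, or -0.06 without PE replicate 1. Atp5a1 and Atp5b, which encode the alpha and beta subunits of the catalytic head, gave similar values. Atp5a1 stood at 351 and 325 FPKM in PE+TSA+shJIP1, 345 and 271 FPKM in PE+TSA, and 433 and 357 FPKM in PE, with a change with TSA of -0.36 ± 0.23 (limma adjusted p = 0.423). Atp5b stood at 784 and 741 FPKM in PE+TSA+shJIP1, 834 and 702 FPKM in PE+TSA, and 1047 and 911 FPKM in PE, with a change with TSA of -0.35 ± 0.23 (limma adjusted p = 0.439). In both genes the PE libraries were higher than all others.

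The proton-carrying c ring is encoded by 3 genes whose mature proteins are the same. Atp5g1 stood at 165 and 106 FPKM in PE+TSA+shJIP1, 108 and 130 FPKM in PE+TSA, and 290 and 185 FPKM in PE. Both PE libraries were above the other 4, with a change of -0.96 ± 0.32 with TSA (limma adjusted p = 0.194) and -0.80 ± 0.32 with both (limma adjusted p = 0.152). Atp5g2 had 197 and 202 FPKM in PE+TSA+shJIP1, 208 and 167 FPKM in PE+TSA, and 226 and 196 FPKM in PE, and a change with TSA of -0.17 (95% interval -0.67 to 0.33). Atp5g3 had 68.8 and 88.9 FPKM in PE+TSA+shJIP1, 80.8 and 57.2 FPKM in PE+TSA, and 94.7 and 101 FPKM in PE, and a change with TSA of -0.52 ± 0.25 (limma adjusted p = 0.323). Atp5g1 made up 38.3% and 26.7% of the FPKM of the 3 genes in PE+TSA+shJIP1, 27.2% and 36.8% in PE+TSA against 47.5% and 38.4% in PE. The PE shares were the highest, by a narrow margin over PE+TSA+shJIP1 replicate 1. Atp5i, the most abundant subunit and a part of the membrane domain, had 2274 and 2267 FPKM in PE+TSA+shJIP1, 1811 and 1369 FPKM in PE+TSA, and 2176 and 1632 FPKM in PE. It had the smallest p of complex V for the hairpin, with a change of 0.53 ± 0.29 (limma adjusted p = 0.47). Atp5h, a stalk subunit, had 779 and 709 FPKM in PE+TSA+shJIP1, 583 and 543 FPKM in PE+TSA, and 695 and 314 FPKM in PE, and its change with both was 0.67 ± 0.38 (limma adjusted p = 0.283), or 1.24 (limma adjusted p = 0.0421) without PE replicate 1 and 0.10 (limma adjusted p = 0.83) without PE replicate 2.

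The 11 other members were mostly low and none passed. Sdhaf2, needed to attach flavin to Sdha, stood at 16.2 and 25.4 FPKM in PE+TSA+shJIP1, 38.8 and 49.0 FPKM in PE+TSA, and 43.3 and 23.8 FPKM in PE, with a change with the hairpin of -1.07 ± 0.36 (limma adjusted p = 0.252). Cox7a2l had 144 and 134 FPKM in PE+TSA+shJIP1, 228 and 186 FPKM in PE+TSA, and 210 and 132 FPKM in PE, and a change with the hairpin of -0.56 ± 0.27 (limma adjusted p = 0.404). For both genes the hairpin libraries lay below PE+TSA and overlapped with PE. The complex I assembly factor Ndufaf6 had the widest spread, at 28.9 and 12.9 FPKM in PE+TSA+shJIP1, 17.3 and 7.12 FPKM in PE+TSA, and 56.7 and 7.18 FPKM in PE.

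Genes around the members were taken from lists of assembly factors, of citric acid cycle enzymes together with pyruvate dehydrogenase, and of regulators. Of 36 assembly factors outside the symbol rule 27 were tested, and in the comparison of both agents with PE 1 passed as higher, where 4.11% of all features did, and none as lower, with none in the other 2 comparisons; the medians were 0.06 with TSA, 0.13 with the hairpin and -0.07 with both. The one that passed was Cox17, the copper chaperone of complex IV, at 648 and 789 FPKM in PE+TSA+shJIP1, 492 and 440 FPKM in PE+TSA, and 322 and 390 FPKM in PE (change against PE 1.01 ± 0.23, limma adjusted p = 0.0489). It passed in 3 of the 15 alternatives. It did not pass when any 1 of the 6 libraries was left out (change 0.87 to 1.15, limma adjusted p = 0.0883 to 0.24). Nor did it pass with the smaller pseudocount, without the filter, with trimmed-mean scaling or quantile normalization, in a fit of 2 groups or with array weights (limma adjusted p = 0.0502 to 0.0838). Of 16 rows of the citric acid cycle and pyruvate dehydrogenase list 2 passed as lower with both agents, where 4.16% of all features did, and none otherwise. The medians were -0.34 with TSA, 0.03 with the hairpin and -0.38 with both. Ogdh, of the oxoglutarate dehydrogenase complex, fell to 75.7 and 78.5 FPKM in PE+TSA+shJIP1, against 105 and 103 FPKM in PE+TSA and 159 and 129 FPKM in PE (change against PE -0.88 ± 0.19, limma adjusted p = 0.0452). It passed in 6 of the 15 alternatives, and not without any 1 of the 6 libraries (change -1.04 to -0.73, limma adjusted p = 0.0794 to 0.201), without the filter (limma adjusted p = 0.0567), in a fit of 2 groups (limma adjusted p = 0.0828) or with array weights (limma adjusted p = 0.0547). Pdha1 (listing 2 of 2), of pyruvate dehydrogenase, fell to 17.8 and 15.9 FPKM in PE+TSA+shJIP1, against 42.7 and 29.9 FPKM in PE+TSA and 66.5 and 63.4 FPKM in PE (change against PE -1.89 ± 0.23, limma adjusted p = 0.0157). It did not pass without PE replicate 2 (change -1.92, limma adjusted p = 0.0713) or without PE+TSA+shJIP1 replicate 1 (change -1.96, limma adjusted p = 0.0918) or 2 (change -1.81, limma adjusted p = 0.114). The other Pdha1 row, listing 1 of 2, had a change of -1.93 ± 0.49 (limma adjusted p = 0.0605).

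None of the 16 tested rows of mitochondrial biogenesis regulators passed. Of all features 0.811% passed with TSA, 0.29% with the hairpin and 8.27% with both, so 0 of so few rows says little. The medians were 0.19 with TSA, -0.04 with the hairpin and 0.09 with both, against 0.10, -0.003 and 0.10 over all features. Esrrg, an orphan receptor that drives respiratory chain genes in heart, stood at 15.7 and 8.83 FPKM in PE+TSA+shJIP1, 43.9 and 43.6 FPKM in PE+TSA, and 33.6 and 18.5 FPKM in PE, with a change with the hairpin of -1.80 ± 0.37 (limma adjusted p = 0.119). Its coactivator Ppargc1a stood at 27.4 and 12.3 FPKM in PE+TSA+shJIP1, 47.3 and 38.4 FPKM in PE+TSA, and 33.4 and 25.3 FPKM in PE, with a change with the hairpin of -1.17 ± 0.39 (limma adjusted p = 0.247). In both genes the hairpin libraries lay below both PE+TSA libraries. Tfam, the packaging factor of mitochondrial DNA, stood at 129 and 119 FPKM in PE+TSA+shJIP1, 94.6 and 94.3 FPKM in PE+TSA, and 96.1 and 59.9 FPKM in PE (change with both 0.70 ± 0.26, limma adjusted p = 0.131). Esrra, the related receptor, stood at 12.1 and 16.1 FPKM in PE+TSA+shJIP1, 16.6 and 12.4 FPKM in PE+TSA, and 19.4 and 17.9 FPKM in PE. Cytochrome c itself, Cycs, was at 4.58 and 3.40 FPKM in PE+TSA+shJIP1, 3.72 and 5.63 FPKM in PE+TSA, and 6.92 and 3.51 FPKM in PE, far below its neighbours in the chain. As with Atp5f1, such a value can be a failed estimate as well as a low level. No listed subunit of the mitochondrial genome had a row, and none was analysed here.

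Libraries of the same group differed from each other across most members. In PE+TSA 76 of 84 members (90.5%) were higher in replicate 1 than in replicate 2, with a median difference of 0.29, against 50.0% of all features tested. In PE it was 70 of 84 (83.3%, median 0.48), against 62.7%, and in PE+TSA+shJIP1 54 of 84 (64.3%, median 0.11), against 50.6%. Of the 73 tested subunits alone, 70 in PE+TSA were higher in replicate 1. PE replicate 1 was the highest of the 6 libraries for 42 members, PE replicate 2 the lowest for 32 and PE+TSA replicate 2 the lowest for 29. Within PE+TSA the cardiomyocyte marker sum was also higher in replicate 1 (9447 FPKM, against 4221 FPKM), and so it was in PE+TSA+shJIP1 and PE, while the fibroblast sum was higher in replicate 2 in all 3 groups. The part of cell composition or depth in this spread was not tested.

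**Figure D5:**
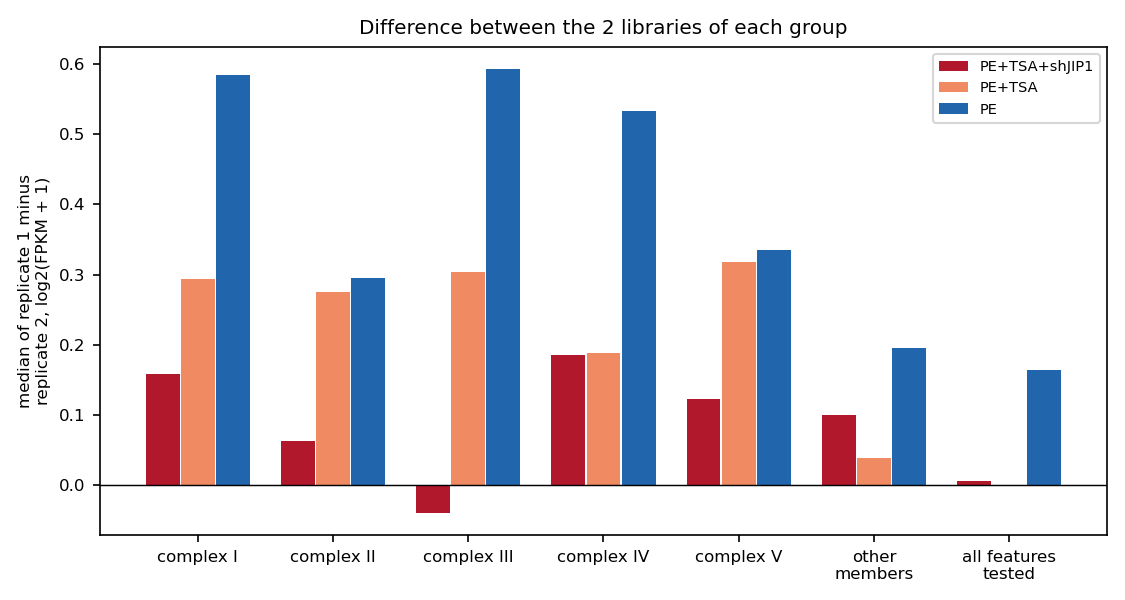
Median difference between replicate 1 and replicate 2, on the log2(FPKM + 1) scale (y axis), for the tested members of each complex and for all features tested (x axis), a bar per group. All bars for complexes I to V are above 0 except PE+TSA+shJIP1 in complex III.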

How the data were processed

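RNA of 6 NRVM libraries was sequenced. The authors deposited 1 table of 13843 rows with a column per library, whose header gives no unit. Its values were taken as FPKM, since Cufflinks, which reports that unit, is named with rn6 (neither with a version) per the submitters' processing notes. Aligner and strand setting: not given in the sources used here. Rows of 1 symbol were kept apart. The 10359 features averaging 1 FPKM or more were tested on log2(FPKM + 1) using limma 3.58.1 (R 4.3.3), a trended prior, 1 mean per group, two-sided p-values and Benjamini-Hochberg adjustment within each comparison. The fit was also run on simulated data with independent noise of the same spread in all 6 libraries. Such data cannot show how the fit behaves with 1 shallow library or with differences between replicates. Relative depth came from the most frequent ratio of low values, which for PE replicate 2 was held by 19 features.

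The members and lists were chosen with earlier results of these data known. Named members were those that passed, those with the smallest p, the highest level or the widest change in each complex or comparison, core subunits, isoforms, members on several rows and members at 0; other members were named after their values were seen. Complexes were assigned by gene name. The values of 1 member are not reported here, although it is counted. Names and promoters came from RefSeq tables of GRCr8, another build than rn6. The 15 alternatives changed the pseudocount, filter, scaling, samples or model.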

Additional observations from a re-analysis of the deposited data

How the results depend on the processing

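Over all features tested, 84 passed with TSA, and 3 without a filter on low values, 7 in a fit of those 2 groups only, 44 with array weights and 28 with the replicate block; leaving out 1 library gave 6 to 250. With the JIP1 hairpin 30 passed, and 0 without the filter (1898 at an unadjusted p under 0.05), 94 with array weights and 18 with the replicate block; leaving out 1 library gave 8 to 19. With both agents against PE 857 passed, and 374 without the filter and 372 in a fit of 2 groups; leaving out 1 library gave 18 (without PE+TSA+shJIP1 replicate 1) to 984 (without PE replicate 1).

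Among the members, 0 passed with TSA in the reported analysis. The changes of Cox4i2 and Uqcrb with TSA were 3.39 and 1.88 when PE replicate 2 alone stood for PE. They were 1.51 and -0.23 when PE replicate 1 did. With the hairpin the count was 1 (Uqcr10) under quantile normalization, where 40 of all features passed, and 1 under array weights, where 94 did. With both agents 1 member passed, where 857 of all features did. The count was 0 without the filter (374 of all features) and 2 with trimmed-mean scaling (Cox4i2 added, 968 of all). It was 3 with quantile normalization (Cox4i2 and Ndufb10 added, 990 of all) and 2 with array weights (596 of all). The replicate block gave 3 (Ndufv2 and Ndufv3 added, 1063 of all). Leaving out symbols on several rows gave 3 (1026 of all). The member count also moved when 1 library was left out, which leaves 1 library in a group. The causes were not tested. Over all features tested, the deviations of libraries with the same number correlated at 0.0735, 0.122 and 0.0396 between pairs of groups. Most members were nonetheless higher in replicate 1 than in replicate 2 in every group. Whether the numbers pair the samples was therefore not settled, and the reported fit takes no account of them. Uqcr10, the member that passed, kept its direction under all 15 alternatives. With 2 libraries a group and 1 library 20.8 times shallower, differences could be missed even where a member's interval excluded 0. The intervals take no account of the adjustment over all features, so they do not give the smallest detectable change. With both agents 17 of 84 members had an unadjusted limma p under 0.05, and 1 passed.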
